A study of Mus musculus with 20 samples.

Results

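Lymph nodes that drain the jejunum were compared with nodes that drain the ileum, the 2 gut positions that lay closest to each other in a study of 5 node positions in Rag1-/- mice. The 4 jejunal and the 4 ileal libraries, 8 of 20 in all, were set against each other, and the duodenal, ceco-colonic and inguinal libraries (4 each) served to estimate the spread between libraries and to place both nodes along the gut. The mice were Rag1-/- (B6.129S7-Rag1tm1Mom/J), aged 9 weeks, and every group carried this mutation, which keeps T and B cells from maturing. No group received a treatment that the labels name. RNA was taken from the whole node and sequenced after poly(A) selection, so stroma, vessels, innate lymphocytes and myeloid cells were measured together. The labels number the libraries 1 to 4 at each position without naming the animal behind each, so a p-value here weighs a difference against library spread that may be partly technical.

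Each stretch of intestine sends its lymph, with dietary lipid, microbial products and migrating dendritic cells, to its own mesenteric nodes. The wall of the small intestine absorbs most fat in its upper part, whereas bile acids are taken up in the ileum. Cells make sterols from acetyl units through the mevalonate pathway, whose genes are switched on by the factor SREBP2 when membrane cholesterol is low. Hox genes are homeobox transcription factors laid out in 4 clusters, and in the embryo the genes at the 5′ end of a cluster, with the high paralog numbers, are active in the posterior body; stromal cells keep such patterns in the adult.

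Depth in estimated counts, given in units of 1000000, was 176.1 to 304.6 in jejunal libraries and 184.0 to 213.2 in ileal libraries. Mitochondrial genes took 1.33% to 2.25% of jejunal and 1.40% to 1.97% of ileal counts. Rag1 itself was read at 2.27 to 2.75 counts per 1000000 (CPM) in jejunal and 1.98 to 2.53 CPM in ileal libraries, and since all mice carry the mutation this level checks no label. The stromal chemokine Ccl21a stood at 1172 to 2743 CPM in jejunal and 1254 to 2156 CPM in ileal libraries. Some neighbouring tissue was in the libraries. Pancreatic acinar genes (13 tested) summed to 97.0 CPM in jejunal library 1, to 7.86 to 11.5 CPM in the other jejunal libraries and to 8.82 to 10.2 CPM in ileal libraries, with the enzyme gene Cpa1 at 6.52 CPM in jejunal library 1. Adipocyte genes (16 tested) summed to 5130 CPM in jejunal library 2, to 1423 to 1735 CPM in the other jejunal libraries and to 1844 to 3239 CPM in ileal libraries. Both jejunal libraries were left out together in an alternative that was chosen after seeing the data.

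How alike the nodes were was measured first. Over the 12233 genes with a mean of at least 5 CPM, Pearson's r of log2 CPM between a jejunal and an ileal library had a median of 0.988 (range 0.970 to 0.992 over 16 pairs of libraries). Between jejunal libraries the median was 0.980 (range 0.970 to 0.988), and between ileal libraries 0.991 (range 0.989 to 0.993), so a jejunal library was as close to ileal libraries as to the other jejunal ones. Among the 16 gut libraries, the library most like an ileal one was ileal for all 4 ileal libraries. For the jejunal libraries it was ileal in 3 cases and jejunal in 1. These correlations are across genes, which are not independent replicates, and they are given as a description.

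**Figure D1:**
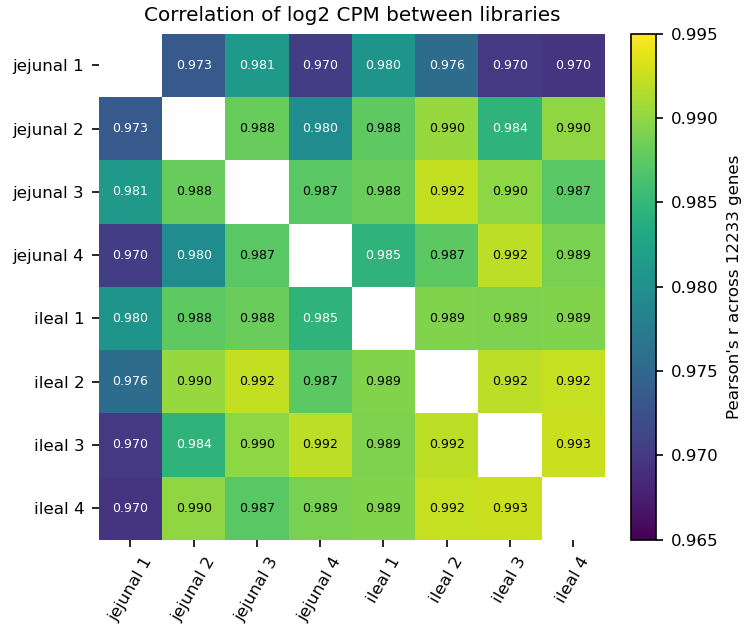
Pearson's r of log2 CPM across 12233 genes between each pair of the 8 libraries, jejunal libraries first on both axes, colour and printed value giving r. Jejunal library 1 had the lowest values of the 8, down to 0.970, and the 4 ileal libraries lay between 0.989 and 0.993 of each other.

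The position of the node, jejunal or ileal, took 14.64% of the variance of log2 CPM between the 8 libraries over all 29411 genes tested. An exact permutation test over the 35 ways of splitting 8 libraries into 4 and 4 gave p = 0.371 (one-sided; the smallest p it allows is 0.0286; 0.371 also after Benjamini-Hochberg adjustment over the 6 pairs of gut positions). The same share was 22.99% for duodenal against jejunal nodes (exact p = 0.0857, adjusted 0.103) and 31.01% to 34.70% for the other 4 pairs (each exact p = 0.0286, adjusted 0.0429). Duodenal libraries 1 and 2 held RNA of neighbouring pancreas, with the acinar gene Cela1 at 3047 and 1689 CPM. In duodenal libraries 3 and 4 Cela1 was at 3.96 and 4.10 CPM. The part of this tissue in the shares and calls of pairs with duodenal nodes was not tested.

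A p above the threshold does not show likeness, so the interval of each difference was counted too. For 11659 of the 12233 genes at 5 CPM or more (95.31%), the 95% interval of the jejunal over ileal fold change lay wholly inside 1.5-fold in either direction, whereas 574 reached past it. Over all 29411 genes, low ones included, the share was 58.43%. At 5 CPM or more, the absolute log2 fold change had a median of 0.0593 and a 95th percentile of 0.236. In the other 5 pairs of gut positions 85.36% to 91.26% of these genes had such an interval, and the 95th percentile was 0.403 to 0.688. The pairs share libraries, so these values stand side by side without a test. The order by number of calls does not hold in every fit: with each pair's own 8 libraries alone, edgeR called 2 genes between jejunal and ileal nodes and 0 between duodenal and jejunal nodes (3378 with an unadjusted p under 0.05), where DESeq2 over all 20 libraries called 1694 and limma-voom 513.

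**Figure D2:**
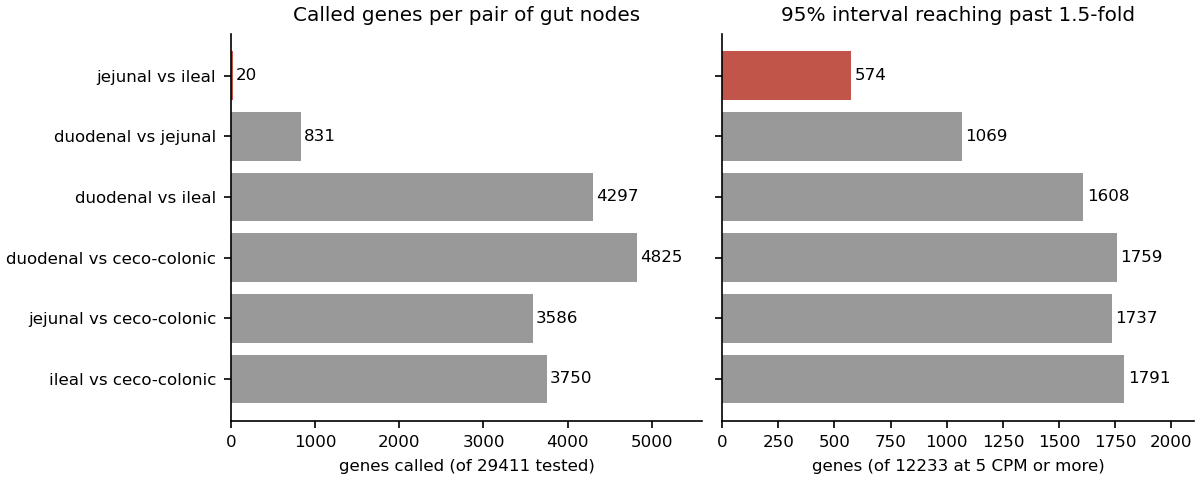
Left, number of genes called (adjusted p under 0.05 of 29411 tested) for each of the 6 pairs of gut positions; right, number of genes at 5 CPM or more (of 12233) whose 95% interval of the fold change reached past 1.5-fold. Jejunal against ileal nodes (red) had 20 called genes and 574 wide or shifted intervals, against 831 to 4825 and 1069 to 1791 in the other pairs (grey), all in the fit of all 20 libraries; in fits of a pair's own 8 libraries the calls were 2 for jejunal against ileal and 0 for duodenal against jejunal nodes.

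Of 29411 genes tested, 20 (0.068%) differed between jejunal and ileal nodes at an adjusted p under 0.05 (edgeR's quasi-likelihood test, p adjusted by Benjamini and Hochberg's method). In the jejunal node 6 were higher (0.0204%) and 14 lower (0.0476%). Jejunal nodes had more RNA of 3 sterol genes, Sqle and Stard4 among them, of the detoxifying enzyme Cyp1a1, of the B-lineage gene Ms4a1 and of the transcription factor Sox11. They had less of 4 posterior Hox genes, of the homeobox gene Irx1, of the secreted matrix protein gene Coch and of 8 others. In whole nodes fewer cells of a type and less RNA per cell cannot be told apart. In all 20 genes the 4 jejunal and 4 ileal libraries did not overlap, which held for 837 of all genes (2.85%). The calls came from these same libraries, so this describes the 20 genes and adds no support. The change was 2-fold or more in 9, and 8 reached 5 CPM in the higher node. Before adjustment, 1594 genes (5.42%) had a p under 0.05.

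The count depends on how the spread is estimated. DESeq2 called 96 genes (39 higher, 57 lower), which include all 20, and a fit of the 8 libraries alone called 2, Coch and Il22ra2, both lower in the jejunal node. Leaving out 1 library gave 7 to 21 calls, with 7 without jejunal library 1, 8 without ileal library 1, 10 without ileal library 2 and 10 without ileal library 4. All 20 kept their direction in each of these 8 fits. In all 8, 7 genes were called, among them Coch, Hoxc9, Hoxc10, Irx1, Stard4 and Ms4a8a, and the other 13 lost the call in 2 or more of them. Without jejunal libraries 1 and 2 there were 7 calls, of which 4 were among the 20 (Hoxc9, Hoxc10, Stard4 and Sox11).

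**Figure D3:**
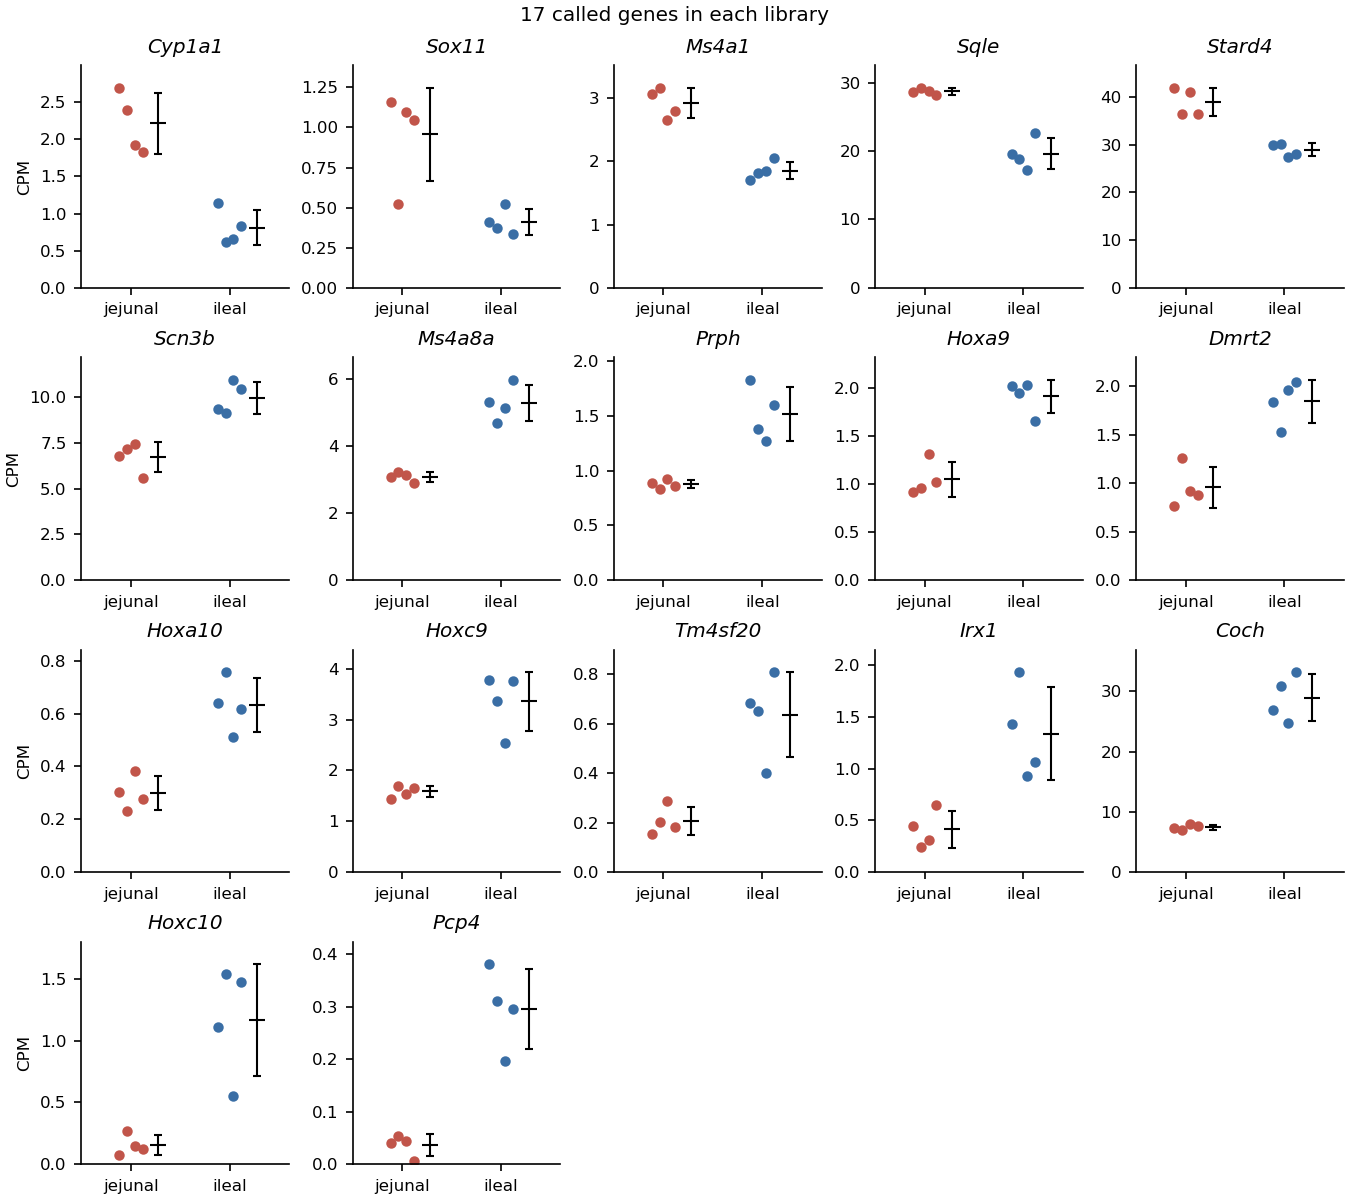
CPM of 17 of the 20 called genes in each library (dots; jejunal red, ileal blue), with the mean and SD of the 4 libraries beside them (bar). Panels run by log2 fold change from Cyp1a1, the most higher in the jejunal node (1.45), to Pcp4, the most lower (-2.97). The values of the 2 groups do not overlap in any panel, but in Sox11 they almost touch (0.523 CPM in jejunal library 2, 0.521 CPM in ileal library 3).

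The sterol genes Sqle and Stard4 were higher in the jejunal node. Of 20 genes on the list of sterol synthesis and its control, all tested, 3 were called higher and none lower, 19 had a fold change above 0, and 12 had an unadjusted p under 0.05, all of them higher. Their median log2 fold change was 0.235, against 0.006 over all 29411 genes, of which 757 had an unadjusted p under 0.05 and were higher. DESeq2 called 6 of them higher, and the fit of the 8 libraries alone called none.

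Sqle, the squalene epoxidase that is a control point of the pathway, had 28.7, 29.3, 28.7 and 28.2 CPM in jejunal libraries, against 19.6, 18.9, 17.2 and 22.6 CPM in ileal libraries. The jejunal values lay close together (SD 0.455 CPM, n = 4), and the change was 1.47-fold (log2 0.55 ± 0.0907 SE, edgeR adjusted p = 0.0218). This call was lost without jejunal library 1 or without ileal library 1, 2 or 3 (adjusted p 0.0528 to 0.0775). Stard4, a carrier that moves sterols between membranes, had 42.0, 36.4, 41.1 and 36.4 CPM in jejunal and 29.9, 30.3, 27.5 and 27.99 CPM in ileal libraries. Its 1.35-fold difference (log2 0.43 ± 0.0589, edgeR adjusted p = 0.00389) was the smallest of the 20 called and held without any 1 library. It also held without jejunal libraries 1 and 2 (log2 0.42, adjusted p = 0.0375), where Sqle had a log2 fold change of 0.54 (adjusted p = 0.173).

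The rest of the list differed less. Msmo1 and Cyp51, which remove methyl groups from lanosterol and its products, were also apart in all 8 libraries but were called by DESeq2 only. Msmo1 averaged 25.0 ± 2.26 CPM in jejunal and 18.6 ± 2.40 CPM in ileal libraries (SD, n = 4 each; edgeR adjusted p = 0.182). Cyp51 averaged 52.48 ± 6.001 and 41.2 ± 4.19 CPM (edgeR adjusted p = 0.198). Hmgcs1, the synthase that feeds the pathway, had a log2 fold change of 0.29 ± 0.0918 (edgeR adjusted p = 0.589). Lss, the lanosterol synthase, had a log2 fold change of 0.02 (interval -0.23 to 0.27), and Srebf2, which encodes SREBP2, one of 0.09 (interval -0.06 to 0.23). Srebf1, whose product drives fatty acid synthesis, was the one member below 0 (log2 -0.09, interval -0.33 to 0.15). For 16 of the 20 genes the whole interval lay inside 1.5-fold.

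Promoter sequences are shown for 2 of these genes that edgeR did not call, Hmgcs1 and Msmo1. The 3 called genes of the list had no promoter sequence to show. They are RefSeq windows (GRCm38.p6) from 250 bases before the gene's start to 50 after it, and 12 of the 20 list genes had one. The capitals mark the sterol regulatory element TCACNCCAC in Hmgcs1, at -137 from the start, and the CCAAT box, read on either strand (ATTGG on the other), in both. The Hmgcs1 window is chr13:119690101-119690400 on the plus strand and the Msmo1 window chr8:64733529-64733828 on the minus strand.
Hmgcs1: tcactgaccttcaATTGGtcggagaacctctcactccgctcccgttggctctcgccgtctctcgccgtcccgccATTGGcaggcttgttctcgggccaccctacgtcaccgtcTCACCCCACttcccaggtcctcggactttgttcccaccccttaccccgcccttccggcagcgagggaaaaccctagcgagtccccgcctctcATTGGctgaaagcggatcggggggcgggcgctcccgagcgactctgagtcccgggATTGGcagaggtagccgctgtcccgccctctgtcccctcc
Msmo1: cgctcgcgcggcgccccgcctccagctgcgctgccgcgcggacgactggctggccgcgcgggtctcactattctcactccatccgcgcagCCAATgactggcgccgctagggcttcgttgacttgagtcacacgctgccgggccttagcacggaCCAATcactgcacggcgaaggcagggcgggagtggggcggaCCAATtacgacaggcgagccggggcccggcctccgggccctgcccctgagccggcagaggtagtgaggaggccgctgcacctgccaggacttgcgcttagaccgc
Hmgcs1 held the element and 4 CCAAT boxes, and Msmo1 held 3 CCAAT boxes, at -160, -96 and -55. The element was in 1 of the 12 windows, against 408 of 32851 promoters (1.242%), and the Hmgcs1 window shown is that one. A CCAAT box was in 12 of 12, against 37.41% of all promoters. The letters GCGTG, searched for another list, were in 9 of the same 12, against 32.39% of all promoters. A match of letters is a description and shows no binding, and a window without one says only that these letters are not in it.

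The posterior genes Hoxc9, Hoxc10, Hoxa9 and Hoxa10 were lower in the jejunal node. Of 37 Hox genes on the list 31 were tested and 6 did not pass the filter on low counts (Hoxa13, Hoxb13, Hoxc11, Hoxd1, Hoxd12 and Hoxd13). None was called higher and 4 were called lower, all of them paralogs 9 and 10 of the A and C clusters (over all 29411 genes, 14 or 0.0476% were called lower). The median log2 fold change of the 31 was -0.076, with 13 above 0 and 18 below, and 19 intervals lay inside 1.5-fold, against 58.43% over all genes. Hoxc9 had 1.44, 1.70, 1.55 and 1.66 CPM in jejunal and 3.78, 3.37, 2.54 and 3.77 CPM in ileal libraries, and was 2.12-fold lower in the jejunal node (log2 -1.08 ± 0.119, edgeR adjusted p = 5.46e-04, the smallest of all genes). Hoxc10 had 0.0762, 0.271, 0.147 and 0.121 CPM in jejunal libraries, against 1.11, 1.54, 0.552 and 1.48 CPM in ileal libraries. These are 23, 55, 33 and 20 estimated counts against 239, 298, 107 and 261, a 7.70-fold difference (log2 -2.95 ± 0.399, edgeR adjusted p = 0.00389). Both genes were low in all jejunal libraries, and both calls held without any 1 library and without jejunal libraries 1 and 2.

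Hoxa9 averaged 1.05 ± 0.180 CPM in jejunal and 1.91 ± 0.175 CPM in ileal libraries, and Hoxa10 0.299 ± 0.0637 and 0.632 ± 0.102 CPM (SD, n = 4 each). Their log2 fold changes were -0.87 ± 0.149 and -1.07 ± 0.178, with edgeR adjusted p of 0.0246 and 0.0221. The Hoxa9 call was lost without jejunal library 1, 2 or 4 or ileal library 1, 2 or 3 (adjusted p 0.0749 to 0.163), and the Hoxa10 call without jejunal library 1, 2 or 4 or ileal library 1, 2 or 4 (0.0533 to 0.0969). In the fit of the 8 libraries alone none of the 4 was called.

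The other Hox genes showed where along the clusters the nodes differed. In the A cluster, Hoxa4 and Hoxa5 were apart in the opposite direction without passing the test: Hoxa4 averaged 1.25 ± 0.168 CPM in jejunal and 0.885 ± 0.113 CPM in ileal libraries (edgeR adjusted p = 0.477), and Hoxa5 4.22 and 3.45 CPM (adjusted p = 0.706). Hoxa7, next to the called genes, had a log2 fold change of 0.13 (95% interval -0.10 to 0.36). In the C cluster Hoxc8, the neighbour of Hoxc9, averaged 11.9 and 13.1 CPM (log2 -0.13, interval -0.36 to 0.09). The B cluster had no called gene, and Hoxb9 had a log2 fold change of 0.14 (interval -0.11 to 0.38). The D cluster genes Hoxd9 and Hoxd10 were below 0 but not called. Hoxd9, at 12.9 ± 1.68 CPM in jejunal and 16.2 ± 1.53 CPM in ileal libraries, had an edgeR adjusted p of 0.798, and Hoxd10, at 2.74 ± 0.610 and 3.83 ± 0.600 CPM, one of 0.712. Hoxa11 had no count in any jejunal library and 0, 10, 2 and 6 counts in the ileal ones, too few for a fold change.

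**Figure D4:**
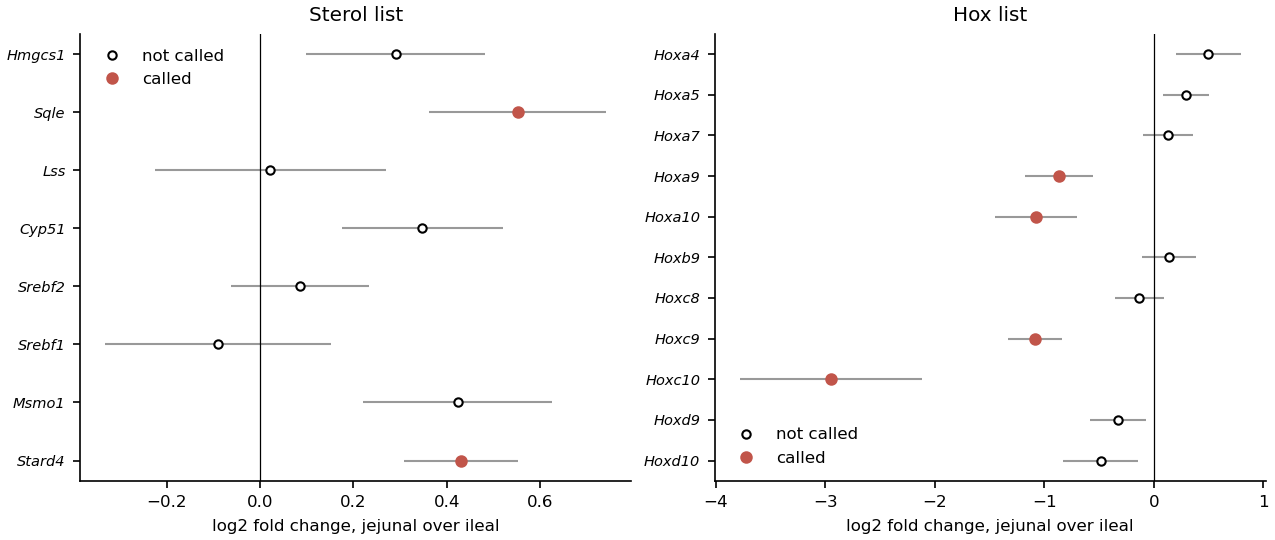
Log2 fold change, jejunal over ileal, of 8 sterol genes (left) and of 11 Hox genes (right), those named in the text for a value, with 95% intervals; filled points are called and open points are not. Of these sterol genes all but Srebf1 lie above 0, and the 4 called Hox genes are paralogs 9 and 10 of the A and C clusters.

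Irx1, an Iroquois homeobox factor, had 0.444, 0.242, 0.313 and 0.648 CPM in jejunal libraries and 1.43, 1.94, 0.928 and 1.06 CPM in ileal libraries. It was 3.28-fold lower in the jejunal node (log2 -1.71 ± 0.255, edgeR adjusted p = 0.00831), and the call held without any 1 library. The transcription factors Dmrt2 and Sox11, named after their values were seen, went opposite ways. Dmrt2, a DM-domain factor, averaged 0.957 ± 0.214 CPM in jejunal and 1.85 ± 0.225 CPM in ileal libraries (edgeR adjusted p = 0.0317). Sox11, an SRY-box factor, averaged 0.957 ± 0.293 and 0.409 ± 0.0806 CPM (edgeR adjusted p = 0.0246). Jejunal library 2, at 0.523 CPM of Sox11, almost touched the highest ileal library, at 0.521 CPM. The Dmrt2 call was lost without jejunal library 1, 3 or 4 or ileal library 1, 3 or 4 (adjusted p 0.0774 to 0.192), and the Sox11 call without jejunal library 1, 3 or 4 or ileal library 1, 2 or 4 (0.0661 to 0.132). The 23 tested genes on the list of other regional mesenchymal factors, which holds Nkx2-3, had no call.

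Among the called genes that reached 5 CPM, Coch had the largest fold change. It encodes cochlin, a secreted protein of the extracellular matrix that in mice is made by follicular dendritic cells of lymphoid tissue as well as in the inner ear. Coch had 7.31, 6.99, 7.97 and 7.64 CPM in jejunal libraries and 26.9, 30.9, 24.7 and 33.3 CPM in ileal libraries. The jejunal libraries lay close together (SD 0.420 CPM) and every ileal library was far above them. Coch was 3.87-fold lower in the jejunal node (log2 -1.95 ± 0.242, edgeR adjusted p = 0.00179). It was called without any 1 library, by DESeq2 and in the fit of the 8 libraries alone (adjusted p = 1.48e-05), and was the only one of the 20 in the last of these. Without jejunal libraries 1 and 2 its log2 fold change was -1.89 and its adjusted p 0.0724. Cxcl13, a B-cell chemokine that follicular stroma makes, had 19.7, 4.68, 12.4 and 9.15 CPM in jejunal and 17.3, 19.3, 17.4 and 13.4 CPM in ileal libraries, which overlapped (edgeR adjusted p = 0.946). Cr2, a complement receptor gene on the reticular stroma list, averaged 1.38 CPM in jejunal and 1.36 CPM in ileal libraries (log2 0.02, interval -0.86 to 0.89, edgeR adjusted p = 0.999). B cells do not mature in these Rag1-/- mice. Which cells of the node held the Coch RNA was not tested.

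Tm4sf20, a small membrane protein of the tetraspanin-like TM4SF group, named after its values were seen, averaged 0.206 ± 0.0563 CPM in jejunal and 0.636 ± 0.171 CPM in ileal libraries (edgeR adjusted p = 0.0345). It lost the call without jejunal library 1, 2 or 4 or ileal library 1, 2 or 4 (0.0776 to 0.192). The summed level of 18 tested intestinal epithelial genes was 37.2 to 57.6 CPM in jejunal and 31.0 to 49.9 CPM in ileal libraries, and that of 12 mesothelial genes 18.2 to 33.4 and 23.2 to 26.7 CPM. Upk3b, a mesothelial marker, was at 0.0397, 3.09, 0 and 0 CPM in jejunal and 0.986, 2.30, 1.08 and 1.10 CPM in ileal libraries. The part of these tissues in the difference of Tm4sf20 was not tested. The 29 matrix genes of another list had no call, and 24 of their intervals lay inside 1.5-fold.

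Few genes of immune cells were called. Ms4a8a, a membrane protein that in mice marks alternatively activated macrophages, had 3.08, 3.24, 3.14 and 2.89 CPM in jejunal and 5.32, 4.69, 5.15 and 5.99 CPM in ileal libraries. Its log2 fold change was -0.78 ± 0.109 (edgeR adjusted p = 0.00477), and the call held without any 1 library. Ms4a1, which encodes the B-cell antigen CD20, was higher in the jejunal node, at 3.07, 3.17, 2.65 and 2.80 CPM, against 1.71, 1.82, 1.85 and 2.04 CPM in ileal libraries (log2 0.66 ± 0.122, edgeR adjusted p = 0.0440). Each fit without 1 of the 8 libraries ended that call (adjusted p 0.0519 to 0.192). Cd79a, a signal chain of the B-cell receptor, overlapped between the nodes, with 0.460 to 0.714 CPM in jejunal and 0.549 to 0.668 CPM in ileal libraries. Ms4a1 was the one call among 24 tested lymphocyte genes.

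Il22ra2, named after its values were seen, encodes the soluble receptor that binds and blocks the cytokine IL-22. It averaged 4.65 CPM in jejunal and 13.1 CPM in ileal libraries and was not called in the test over all 20 libraries (edgeR adjusted p = 0.102), but it was called by DESeq2 (adjusted p = 0.00876) and in the edgeR fit of the 8 libraries alone (log2 -1.48, adjusted p = 0.00714). Il22 itself had 1.33, 0.607, 3.76 and 1.45 CPM in jejunal and 3.96, 2.36, 3.22 and 1.29 CPM in ileal libraries, which overlapped (edgeR adjusted p = 0.986).

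Cyp1a1 is the classic target of the aryl hydrocarbon receptor, a sensor of plant, microbial and pollutant molecules, and its enzyme breaks down many of them. It had 2.70, 2.40, 1.92 and 1.83 CPM in jejunal libraries, against 1.14, 0.619, 0.660 and 0.827 CPM in ileal libraries, a 2.73-fold difference (log2 1.45 ± 0.246, edgeR adjusted p = 0.0246). All jejunal libraries were above the ileal ones. The call was lost without jejunal library 1 or 2 or ileal library 2, 3 or 4 (adjusted p 0.0515 to 0.129). The other 7 genes on this receptor's list were not called. Cyp1b1, a related enzyme at a far higher level, averaged 300.8 and 301.2 CPM (log2 -0.002, 95% interval -0.22 to 0.22). Tiparp and Ahrr, which damp the receptor, had log2 fold changes of -0.03 (interval -0.20 to 0.14) and -0.09 (interval -0.37 to 0.20). Ahr, the receptor itself, averaged 60.2 CPM in jejunal and 52.3 CPM in ileal libraries (log2 0.21, interval 0.08 to 0.33, edgeR adjusted p = 0.501).

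The RefSeq promoter window of Cyp1a1 (GRCm38.p6, chr9:57697363-57697662, plus strand) is shown because this was the one called gene of the list. Capitals mark the core GCGTG of the xenobiotic response element, searched on both strands and found at -54 from the start.
Cyp1a1: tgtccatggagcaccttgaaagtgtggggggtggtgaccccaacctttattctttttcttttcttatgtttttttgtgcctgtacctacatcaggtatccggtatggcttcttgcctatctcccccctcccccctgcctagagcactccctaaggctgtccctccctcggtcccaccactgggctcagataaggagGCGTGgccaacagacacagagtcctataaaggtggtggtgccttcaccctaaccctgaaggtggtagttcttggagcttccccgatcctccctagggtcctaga
The core is short, and 32.39% of 32851 promoters of this length hold it on one strand or the other. It shows no binding.

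The called genes Scn3b, Prph and Pcp4 are known from neurons. Scn3b, a beta subunit of voltage-gated sodium channels, had 6.81, 7.16, 7.44 and 5.59 CPM in jejunal and 9.36, 9.14, 10.97 and 10.47 CPM in ileal libraries (log2 -0.56 ± 0.0965, edgeR adjusted p = 0.0246). Its call was lost without jejunal library 1 or 4 or ileal library 1, 3 or 4 (adjusted p 0.0528 to 0.136). Prph, the intermediate filament peripherin of peripheral neurons, averaged 0.876 ± 0.0390 CPM in jejunal and 1.52 ± 0.249 CPM in ileal libraries (edgeR adjusted p = 0.0439), and 7 of the 8 fits without 1 library ended the call, all but the one without ileal library 3 (0.0826 to 0.185). Pcp4, a calmodulin-binding protein, had 12, 11, 10 and 1 counts in jejunal and 82, 60, 38 and 52 counts in ileal libraries, which is 0.0362 ± 0.0210 and 0.295 ± 0.0763 CPM (log2 -2.97 ± 0.462, edgeR adjusted p = 0.0120). It lost the call without jejunal library 1 or without ileal library 1 (0.0752 and 0.0528). Of 13 tested glial and nerve genes, 9 had fold changes above 0 and Prph was the one call. Their summed level was 160.0 to 173.4 CPM in jejunal and 144.2 to 163.7 CPM in ileal libraries, and its part in these differences was not tested.

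The called genes were then set beside the ends of the gut. Those libraries give neither node's mean, but they entered the estimate of spread behind the 20 calls. They include duodenal libraries 1 and 2, with their pancreatic RNA. In duodenal against ceco-colonic nodes, where 4825 genes (16.4%) were called, 19 of the 20 genes (95%) had the sign they had in jejunal against ileal nodes, and 18 of those were also called. Over all genes the sign was shared by 18195 of 29411 (61.86%). Prph had the same sign without a call (log2 -0.30, edgeR adjusted p = 0.168), and Pcp4 was the exception (0.15, edgeR adjusted p = 0.869).

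The 4 Hox genes were ordered along the gut, from a mean of 0.665 CPM in duodenal nodes through 1.59 in jejunal and 3.36 in ileal to 5.18 CPM in ceco-colonic nodes for Hoxc9. Hoxc10 averaged 0.0236, 0.154, 1.17 and 6.73 CPM along the same 4 positions, and Hoxa10 0.0969, 0.299, 0.632 and 3.68 CPM. Hoxa9 averaged 0.390, 1.05, 1.91 and 5.56 CPM. The sterol genes Sqle and Stard4 had their widest step between jejunal and ileal nodes. Sqle averaged 30.2, 28.7, 19.6 and 20.8 CPM from duodenal to ceco-colonic nodes, and Stard4 39.2, 39.0, 28.9 and 31.1 CPM. Coch had its widest step there too, at 4.07 and 7.48 CPM in duodenal and jejunal nodes and 29.0 and 24.0 CPM in ileal and ceco-colonic nodes. Cyp1a1 had its highest mean in the jejunal node, with means of 1.10, 2.21, 0.811 and 0.412 CPM. The inguinal node was outside these orders, with 6.63 CPM of Hoxc9 and 10.8 CPM of Sqle.

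**Figure D5:**
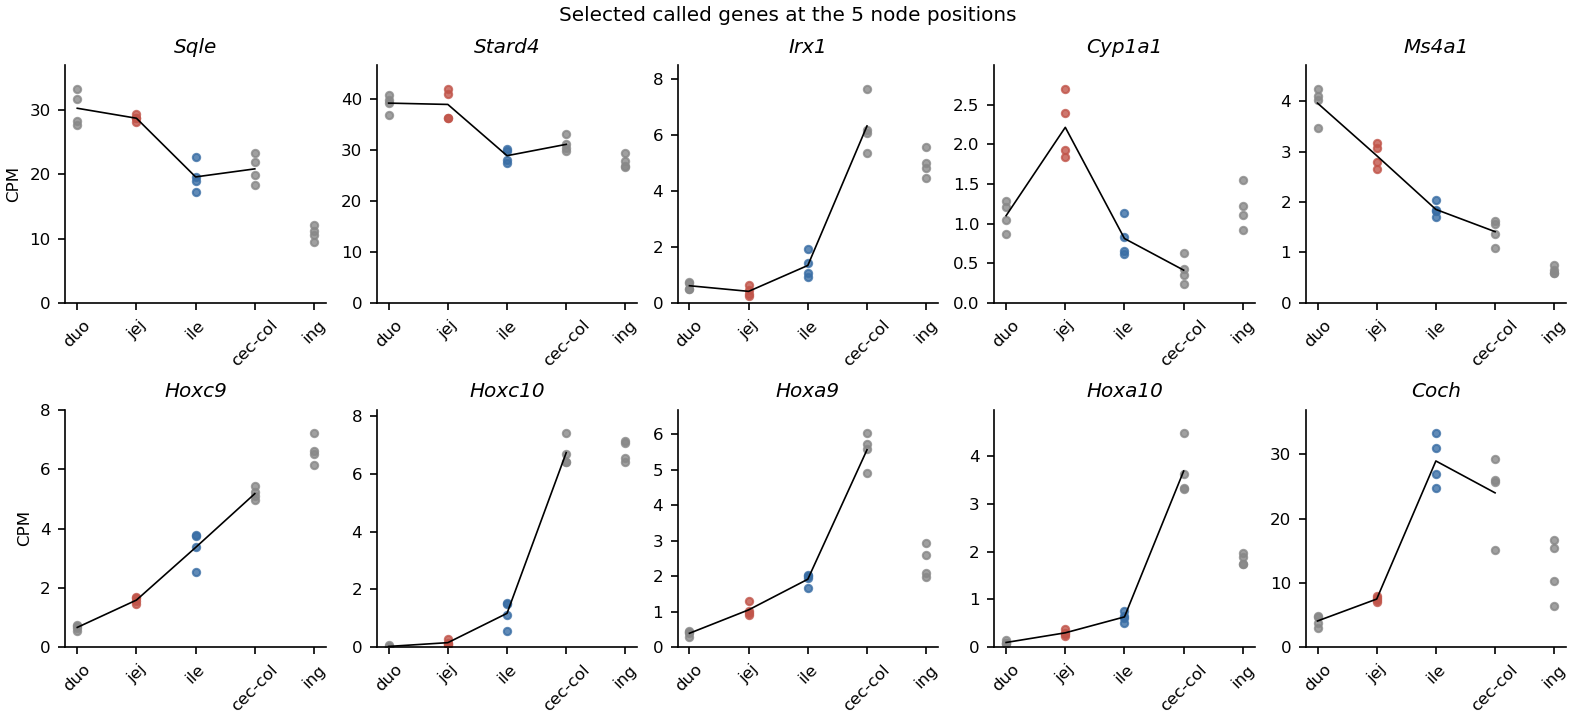
CPM of 10 called genes in each library at the 5 positions (dots, from duodenal on the left to inguinal on the right, with jejunal red and ileal blue); the line joins the means of the 4 gut positions. Sqle, Stard4 and Coch change between jejunal and ileal nodes, and Hoxc9, Hoxc10, Hoxa9 and Hoxa10 climb towards the ceco-colonic node, where Hoxc10 averaged 6.73 CPM.

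Genes known to mark gut nodes were not called. Nkx2-3, the homeobox factor that gut and spleen vessels need, had 22.38, 20.46, 19.98 and 23.99 CPM in jejunal and 22.7, 20.1, 22.6 and 22.8 CPM in ileal libraries (log2 -0.02, 95% interval -0.24 to 0.20). Madcam1, the vessel ligand for gut-homing lymphocytes, had 53.0, 33.3, 54.5 and 55.6 CPM in jejunal and 75.4, 60.6, 70.4 and 53.6 CPM in ileal libraries, which overlapped through ileal library 4 (log2 -0.40, interval -0.78 to -0.02, edgeR adjusted p = 0.908). Aldh1a2, which makes retinoic acid, had 152.8, 182.5, 143.4 and 206.8 CPM in jejunal and 191.9, 236.9, 170.2 and 274.2 CPM in ileal libraries, also overlapping (log2 -0.35, interval -0.65 to -0.04, edgeR adjusted p = 0.856). The intervals of Madcam1 and Aldh1a2 reached past 1.5-fold, so these libraries do not bound the difference of either gene to that size. Among the genes of highest level per length, Eef1a1, a factor of protein synthesis, had a log2 fold change of -0.01, the lipid carrier Apoe one of -0.09, and Cd74, the class II invariant chain, one of -0.05.

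Of the 34 gene lists, 29 had no called member, where 0.068% of all genes were called. Over all genes 58.43% of intervals lay inside 1.5-fold, and 95.31% at 5 CPM or more, and the counts of intervals below are read against these shares. All 13 class II antigen presentation genes, all 14 cell division genes and all 16 tested clock genes had intervals inside 1.5-fold, with median log2 fold changes of -0.050, 0.084 and 0.048. The 24 tested reticular stroma genes had a median of -0.006 with 16 intervals inside 1.5-fold, the 19 lymphatic endothelial genes -0.081 with 10, and the 25 dendritic cell genes 0.048 with 20. Of 20 genes of high endothelial and blood vessels, 15 were above 0 and none was called (median 0.083). At an unadjusted p under 0.05, 7 of these 20 were higher and 1 lower, against 757 and 837 of all 29411 genes. Of the 20 intervals 11 lay inside 1.5-fold, and DESeq2 called 1 of the genes higher. Of 22 macrophage genes 17 were below 0 (median -0.099), and of 24 genes of lipid uptake, storage and export 16 were (median -0.056).

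In some lists without a call most members had the same sign. Over all 29411 genes, 15207 were above 0 and 14204 below, and 757 and 837 of these had an unadjusted p under 0.05. All 19 natural killer and cytotoxic genes were below 0 (median -0.210), 7 with an unadjusted p under 0.05, and 15 intervals lay inside 1.5-fold. Nkg7, a granule protein, averaged 57.7 ± 4.07 CPM in jejunal and 69.7 ± 4.83 CPM in ileal libraries (edgeR adjusted p = 0.777). Of 24 interferon response genes 22 were below 0 (median -0.351), 8 with an unadjusted p under 0.05. Their sum was 3345 to 4800 CPM in jejunal and 3608 to 6608 CPM in ileal libraries, which overlapped, and Isg15, the ubiquitin-like protein of this response, had an edgeR adjusted p of 0.891. Of 17 genes of type 2 innate lymphoid cells and eosinophils 16 were above 0 (median 0.215), and of 17 genes of type 3 innate lymphoid cells 14 (median 0.177). Of 16 neutrophil and monocyte genes 11 were above 0 (median 0.405), 6 of them with an unadjusted p under 0.05 and 2 of the others lower at that level. The sum of these 16 genes did not lean the same way, at 224.6 to 279.8 CPM in jejunal and 266.3 to 305.4 CPM in ileal libraries. Of their intervals 2 lay inside 1.5-fold. All 16 clock genes were above 0. Among the lists of neighbouring tissue, all 13 pancreatic acinar genes were above 0 (median 2.816), the genes that were high in jejunal library 1, and 10 of 12 mesothelial genes were below 0 (median -0.380), none of either list with an unadjusted p under 0.05. These counts describe the 8 libraries and were not tested. Nkg7 and Isg15 were named after their values were seen.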

How the data were processed

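PolyA RNA of whole nodes was measured in 20 libraries. The submitters' processing notes list kallisto, limma and edgeR and the builds GRCm39 and mm10, with neither roles nor versions. The gene table that the authors deposited holds expected counts (estimated counts per gene, not whole reads). The transcript tables that they deposited hold expected counts and TPM. Over 12483 genes, 99.712% of the gene values lay within 0.01 (log2) of TPM scaled by mean transcript length. Such estimates can split reads between near-identical genes.

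Gene estimates were rounded, filtered with filterByExpr by position (minimum count 10, minimum total 15), TMM-normalized and fitted with edgeR 4.0.16 (R 4.3.3; quasi-likelihood) over all 20 libraries, with 1 mean per position. The median biological coefficient of variation was 0.157. Genes with a Benjamini-Hochberg adjusted p under 0.05 were counted as called. SE is model-based, intervals are 95%, CPM are TMM-scaled, and log2 CPM had a prior count of 2. The fit was tested on simulated data.

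The pair was proposed as the closest, and its members and the 34 gene lists (601 symbols) were chosen, with earlier results of these data known. The naming rule took called genes that reached 5 CPM and whose libraries did not overlap (at most 15 per direction), the 10 of smallest p, every called Hox gene, at most 4 called genes of each list (where none was called, its 2 most abundant), the 10 highest per length, 8 fixed genes, and called genes whose duodenal against ceco-colonic difference was called with the opposite sign. It named 84 genes, not all of them given here, and some genes of the lists and calls are not reported. Genes named outside it, such as uncalled list members, were chosen after their values were seen. Alternatives were other size factors, no filter, DESeq2 1.42.0, limma-voom (limma 3.58.1), the replicate number as a block, the 8 libraries alone, each library left out, summed transcript counts and, chosen after seeing the data, jejunal or duodenal libraries 1 and 2 left out.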

Additional observations from a re-analysis of the deposited data

Results flagged for a closer look

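Among 108 groups of 4 libraries, of called and other named genes, 8 had 1 library far from the other 3. Far meant a gap, as a share of the group's range, above Dixon's 95% critical value, which chance gives in about 1 in 20 groups. Jejunal library 1 held 6.52 CPM of the pancreatic gene Cpa1, against 0.116 to 0.296 CPM in the other jejunal libraries. Jejunal library 2 held 3.09 CPM of the mesothelial gene Upk3b, against 0 to 0.0397 CPM in the others. It also held 14.2 CPM of Hoxc8, against 10.9 to 11.4 CPM, and 33.3 CPM of Madcam1, against 53.0 to 55.6 CPM. Jejunal library 4 held 240.1 CPM of Srebf2, against 196.0 to 200.8 CPM, and 3.53 CPM of Il22ra2, against 4.89 to 5.11 CPM. Ileal library 2 held 2.30 CPM of Upk3b, against 0.986 to 1.10 CPM in the other ileal libraries, and 20.1 CPM of Nkx2-3, against 22.6 to 22.8 CPM. None of these genes was called in the comparison of jejunal with ileal nodes over all 20 libraries.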

How the results depend on the processing

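The 20 genes called became 19 to 21 with other size factors, no filter, summed transcript counts or without duodenal libraries 1 and 2, and 18 with limma-voom. There were 96 with DESeq2, 38 with the replicate number as a block, 2 in the 8 libraries alone, 3 there with the block, 7 without jejunal libraries 1 and 2, and 7 to 21 without any 1 library. The replicate block was not used as pairing: same-numbered libraries correlated at 0.032 to 0.162 in their deviations, over 0.1 for 2 of 4 numbers, and 4 of 8 libraries correlated best with their own number. With the replicate block the position's share of variance was 27.36%, against 14.64% without it. The permutation p of 0.0571 with the block came from all 35 splits, not only from swaps within a replicate number. It therefore does not test the blocked share. Without any 1 library the unblocked share was 16.03% to 18.83%. Its permutation p ran from 0.114 without jejunal library 4 to 0.657 without ileal library 4, and was 0.543 without jejunal library 1 and 0.171 without jejunal library 2. Of the Hox genes 4 were called, but 2 without jejunal libraries 1 and 2, 2 to 4 without any 1 library, and 0 by edgeR in the 8 libraries alone, with or without the block (9 of 30 had an unadjusted p under 0.05 in each). Of the sterol genes 3 were called, but 6 with DESeq2, 1 without jejunal libraries 1 and 2, 2 to 3 without any 1 library, and 0 by edgeR in the 8 libraries alone, with or without the block (unadjusted p under 0.05 in 11 and 10 of 20). The 95.31% of genes with an interval inside 1.5-fold became 95.70% with no filter, 96.05% with the block, 95.71% in the 8 libraries alone, 96.88% there with the block, 92.81% without jejunal libraries 1 and 2, 95.72% without duodenal libraries 1 and 2, and 93.55% to 95.05% without any 1 library. The share of calls with the sign of duodenal against ceco-colonic nodes was 95%, but 100% of 2 in the 8 libraries alone, 66.67% of 3 there with the block, and 80% to 100% without any 1 library. Duodenal against jejunal nodes had 831 calls, but 1694 with DESeq2, 513 with limma-voom, 1597 with the block and 0 by edgeR in their 8 libraries alone (3378 with an unadjusted p under 0.05). Fits of 8 libraries alone gave 2571 for duodenal against ileal and 3113 for duodenal against ceco-colonic nodes. None of the 20 called genes changed sign under these alternatives. The fits of fewer libraries have fewer residual degrees of freedom, and otherwise the cause was not tested. For genes below 5 CPM, many differences of 1.5-fold and of 2-fold were not detectable at this depth and number of libraries.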
